A study of Mus musculus with 15 samples.

Results

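Gene expression in mouse T cells of an acute lymphoblastic leukemia (T-ALL) was compared between 8 h and 4 h after the MYC oncogene had been turned off. The 6 libraries used were those labelled MYC off 8 h (3) and MYC off 4 h (3), of 15 in the series. The others came from MYC off cells at 2 h and 24 h and from MYC on cells at 0 h, with 3 libraries at each time. They served to show what each gene had done before 4 h and after 8 h. The paper's methods describe a PBS mock treatment for MYC on cells in general. All cells carried the EμSRα-tTA/tet-O-MYC transgenes of the FVB/N mice in whose tumors they arose. Per the paper's methods, T-ALL cells from such tumors were grown in culture. In this model a lymphoid enhancer and promoter drive the tetracycline transactivator, the transactivator keeps a human MYC transgene on, and doxycycline turns it off. Both the 8 h and the 4 h cells had received doxycycline, and their labels differ in time. MYC on libraries exist at 0 h only, so time since doxycycline and time in culture cannot be told apart. Neither the labels nor the methods read here say whether the 3 libraries of a time came from separate cultures, and the spread behind each p-value may be that of technical repeats only.

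MYC is a transcription factor that pairs with MAX on E-box sequences and raises the output of genes for ribosome assembly, nucleotide and amino acid synthesis, polyamines, mitochondria and the cell cycle. T-ALL cells that depend on it lose much of this program when it is withdrawn, and arrested or differentiating thymocytes carry the opposite one, with T cell receptor components, class I antigen presentation and homing receptors. A step of 4 h to 8 h after withdrawal therefore holds genes of several kinds. Some had already been moving since 2 h or 4 h, some moved for the first time, and some reversed an earlier change. These kinds are described in turn.

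The transgene was almost silent by 4 h and still fell. It had 5.68, 6.08 and 4.99 CPM at 8 h and 8.07, 9.22 and 10.96 CPM at 4 h (log2 fold change -0.75 ± 0.12, edgeR adjusted p = 0.00024), where CPM are counts relative to library totals scaled by TMM and ± is the standard error of the fitted log2 fold change. Its means at 0, 2, 4, 8 and 24 h were 2024, 24.8, 9.42, 5.58 and 3.29 CPM. Library totals were 26290485 to 26669128 counts at 8 h and 26441868 to 26738971 at 4 h, and 3 counts corresponded to 0.112 to 0.114 CPM of these totals. Markers of T cells summed to 7370 to 7630 CPM at 8 h and 5790 to 6060 CPM at 4 h. B cell markers summed to 0.220 to 0.450 CPM at 8 h and 0.155 to 0.307 CPM at 4 h, with Cd22, Cd79b, Ms4a1 and Pax5 at 0 in all 6 libraries. Myeloid markers summed to 16.0 to 17.4 CPM at 8 h and 9.26 to 10.8 CPM at 4 h, of which Itgam was the largest part, and Lyz2, Cd14, Adgre1 and Elane were at 0. Fibroblast and endothelial markers summed to 96.1 to 111 CPM at 8 h and to at least 74.9 CPM at 4 h, with no overlap, mostly Pecam1, which T cells also express, and Cdh5, Col3a1, Kdr and Pdgfra were at 0. Near 0 were erythroid markers (0.225 to 0.697 CPM at 8 h, 0.310 to 0.615 CPM at 4 h). NK markers were lower still (0.115 to 0.225 CPM at 8 h, 0.0768 to 0.310 CPM at 4 h). In bulk RNA, fewer cells of a type and less RNA per cell cannot be told apart. CPM are relative to the library, so a change in total RNA per cell does not show in them. The third library of 24 h stood apart from its group and entered the common estimate of spread, so counts that it moves by over 1.5 times are also given without it. Of the 255 genes that the selection rule covers, 131 share bases with another annotated gene, 105 of them on the opposite strand. Whether counting used strand is not stated in the labels or methods read here, and reads of such pairs may be mixed.

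Of 14485 genes tested, 830 (5.73%) were higher and 1010 (6.97%) lower at 8 h than at 4 h at an edgeR adjusted p under 0.01, which makes 1840 (12.7%) in all. In all 1840 the 3 libraries of 8 h did not overlap the 3 of 4 h, a pattern seen in 19.9% (higher) and 21.9% (lower) of all genes tested. Changes were mostly modest. Of the 1840, 433 higher and 627 lower genes changed by less than 1.5-fold, and 111 higher and 138 lower genes by at least 2-fold. The median log2 fold change was 0.57 among the higher, -0.49 among the lower and -0.01 among all tested genes. Without the third library of 24 h the counts were 1696 higher and 2128 lower, and all 1840 genes were among them. With library totals in place of TMM they were 1100 and 704, which raised the higher share of the calls to 61.0%, against 45.1% with TMM.

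**Figure D1:**
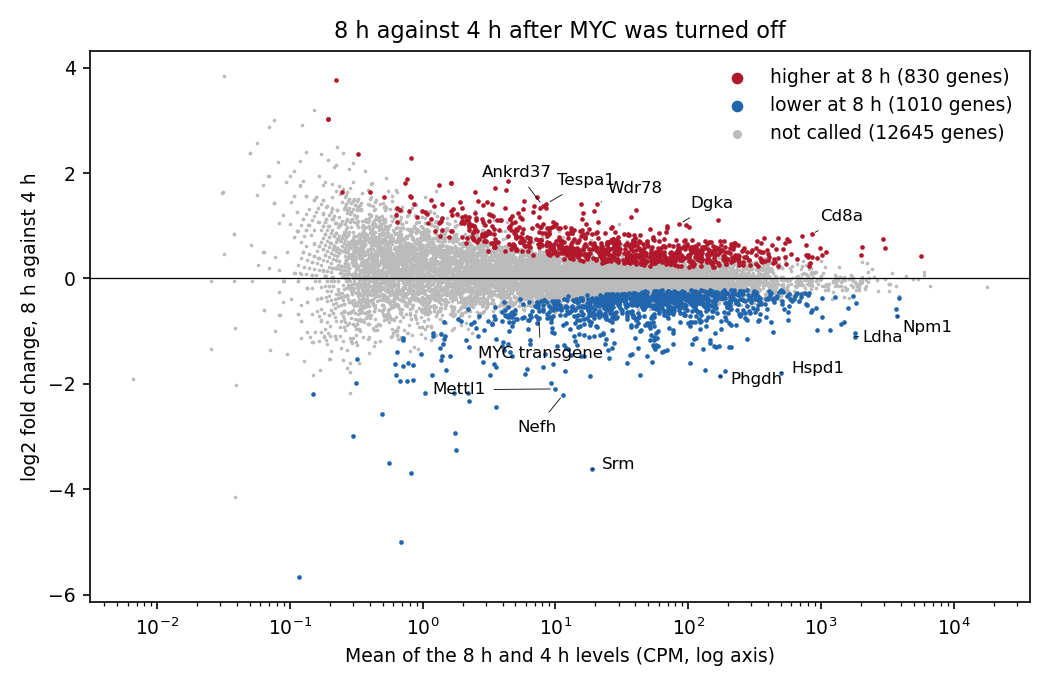
log2 fold change at 8 h against 4 h (y axis) of 14485 tested genes, by their mean level in CPM (x axis, log scale), with 830 genes called higher in red, 1010 called lower in blue and the others in grey. Srm stands lowest among the abundant genes at -3.62, and most called genes lie within 2-fold of no change.

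The deepest fall among well-expressed protein-coding genes was that of Srm (chr4:148591503-148594993), which encodes spermidine synthase. Srm had 2.90, 2.89 and 2.69 CPM at 8 h and 40.03, 34.8 and 29.3 CPM at 4 h (log2 fold change -3.62 ± 0.11, edgeR adjusted p = 4.04e-11). Its means at 0, 2, 4, 8 and 24 h were 354, 180.1, 34.7, 2.82 and 4.58 CPM, so that the fall was already under way before 4 h. Nefh, a neurofilament subunit, had 4.84, 4.69 and 2.69 CPM at 8 h and 19.6, 19.9 and 17.02 CPM at 4 h (-2.21 ± 0.16 on the log2 scale). Phgdh, which opens the serine synthesis pathway, had 77.2, 67.9 and 79.5 CPM at 8 h and 274, 248 and 288 CPM at 4 h (-1.85 ± 0.12). Values of Cad, the enzyme that starts pyrimidine synthesis, were 22.2, 18.7 and 16.03 CPM at 8 h and 83.5, 60.1 and 59.2 CPM at 4 h (-1.83 ± 0.17). In each of these genes the highest 8 h library lay far below the lowest 4 h library. The other 6 of the 10 largest falls were Mettl1 (-2.09), a tRNA methyltransferase, Bcat1 (-1.98), which transaminates branched-chain amino acids, Mdn1 (-1.85), an ATPase of 60S assembly, Hspd1 (-1.79), the mitochondrial chaperonin, Shmt2 (-1.76), the mitochondrial serine hydroxymethyltransferase, and Abhd11 (-1.75), a mitochondrial hydrolase. Mettl1, Bcat1, Hspd1, Shmt2 and Abhd11 overlap other annotated genes on the opposite strand. All 10 fell in each of the 24 alternative analyses run for single genes.

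Of 13 polyamine and hypusine genes tested, 4 fell and 0 rose, and 7 fell without the third library of 24 h. Besides Srm these were Odc1 (51.8, 48.5 and 53.9 CPM at 8 h, 111, 94.8 and 98.4 CPM at 4 h, -0.98 ± 0.1), the first enzyme of the pathway, Eif5a (1214, 1161 and 1204 CPM at 8 h, 2548, 2342 and 2427 CPM at 4 h, -1.03 ± 0.1), the translation factor that carries hypusine, and Dohh (-0.48), which completes hypusine and lost its call in 12 of the 24 alternatives. Serine and folate enzymes fell in 8 of 15 and rose in 1, with 12 falls without that library. Shmt1, the cytosolic partner of Shmt2, had 20.3, 20 and 20.6 CPM at 8 h and 58.1, 53.8 and 52.6 CPM at 4 h (-1.43 ± 0.062), and Mthfd1 (-1.37) fell alongside. The gene that rose was Gldc, of the glycine cleavage system, with 4.40, 4.31 and 4.56 CPM at 8 h and 1.96, 2.25 and 2.45 CPM at 4 h (0.99 ± 0.18). Nucleotide synthesis fell in 12 of 28 genes and rose in 0, with Atic (-1.31), which closes the purine ring, Aprt (-1.31), which salvages adenine, and Dctpp1 (-1.35), which clears dCTP, next to Cad. The median log2 fold change was -0.62 over the serine and folate list and -0.36 over the nucleotide list, against -0.01 over all tested genes. Of all tested genes 6.97% fell and 5.73% rose. Without the third library of 24 h 2128 genes fell in all, against 1010 in the main fit. Asns, the asparagine synthetase and a target of ATF4, fell to 12.5, 13.9 and 13.1 CPM at 8 h, against 38.2, 39.9 and 34.5 CPM at 4 h (-1.51 ± 0.074).

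Many ribosome assembly genes fell. Of 16 snoRNP proteins, which guide rRNA modification, 12 fell and 0 rose, with a median of -0.79. Over all tested genes 6.97% fell and 5.73% rose. Fbl, the rRNA methyltransferase fibrillarin, had 74.5, 70.5 and 73.99 CPM at 8 h and 192, 184 and 179 CPM at 4 h (-1.34 ± 0.087, edgeR adjusted p = 6.52e-08). Nhp2 (-1.28) and Gar1 (-1.03), subunits of the pseudouridylation particle, fell by similar amounts. Among 47 genes of 60S assembly 24 fell and 0 rose, and among 40 of the small subunit processome 19 fell and 1 rose. Lyar (-1.47), a nucleolar protein, Ebna1bp2 (-1.28) and Mrto4 (-1.27) are examples from the first, Utp20 (-1.06) and Rrp12 (-0.93) from the second. The riser was Bysl (143, 124 and 120.4 CPM at 8 h, 94.7, 79.1 and 81.3 CPM at 4 h, 0.60 ± 0.1), a 40S maturation factor that overlaps Ccnd3 on the opposite strand, and Ccnd3 rose as well. RNA polymerase I and III genes fell in 5 of 31 and rose in 0, led by Polr1a (-1.36), the largest subunit of polymerase I, and fell in 13 and rose in 1 without the third library of 24 h. Median log2 levels of the 60S assembly list against 0 h were -0.56, -1.43, -1.87 and -2.07 at 2, 4, 8 and 24 h, so that the largest step of the list was that from 2 h to 4 h.

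The genes of the cytosolic ribosome itself were mostly not called. Of 88 ribosomal protein genes 0 were higher and 1 lower at 8 h, the ribosomal protein paralog Rpl22l1. At an unadjusted p under 0.05 there were 1 higher and 3 lower, and DESeq2 called 0 higher and 2 lower. Between 24 h and 8 h, 85 of the 88 fell, where 17.3% of all tested genes did. At 8 h against 4 h, 8 of the 88 fell when the third library of 24 h was left out. Among 47 translation factors 16 fell and 1 rose, and among 38 aminoacyl-tRNA synthetases 16 fell and 0 rose, with Vars, which charges tRNA with valine, at 35.02, 31.5 and 29.5 CPM at 8 h and 88.5, 77.3 and 71.8 CPM at 4 h (-1.31 ± 0.12). Nuclear transport genes fell in 15 of 34 and rose in 0, such as the importin Ipo5 (256, 239 and 238 CPM at 8 h, 470.2, 406 and 400.1 CPM at 4 h, -0.80 ± 0.068). Of 11 genes of the cytosolic chaperonin CCT and its partner prefoldin 6 fell, with Cct6a (-0.73) in front and the prefoldin subunit Pfdn6 among them, and heat shock genes fell in 8 of 18, with Hsp90aa1 (684, 662 and 701 CPM at 8 h, 1057, 1007 and 1028 CPM at 4 h, -0.59 ± 0.073) and the cochaperone Fkbp4 (-1.30). Proteasome genes fell in 8 of 46, a share of 17.4%, beside 6.97% of all tested genes. Leaving out the third library of 24 h, the falls were 14 of 16 for the snoRNP proteins, 32 of 47 for 60S assembly, 32 of 40 for the processome, 31 of 47 for translation factors, 22 of 38 for the synthetases, 24 of 34 for nuclear transport, 10 of 11 for CCT and prefoldin, 12 of 18 for heat shock genes and 24 of 46 for the proteasome. In that fit 2128 genes fell in all, against 1010 in the main fit.

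**Figure D2:**
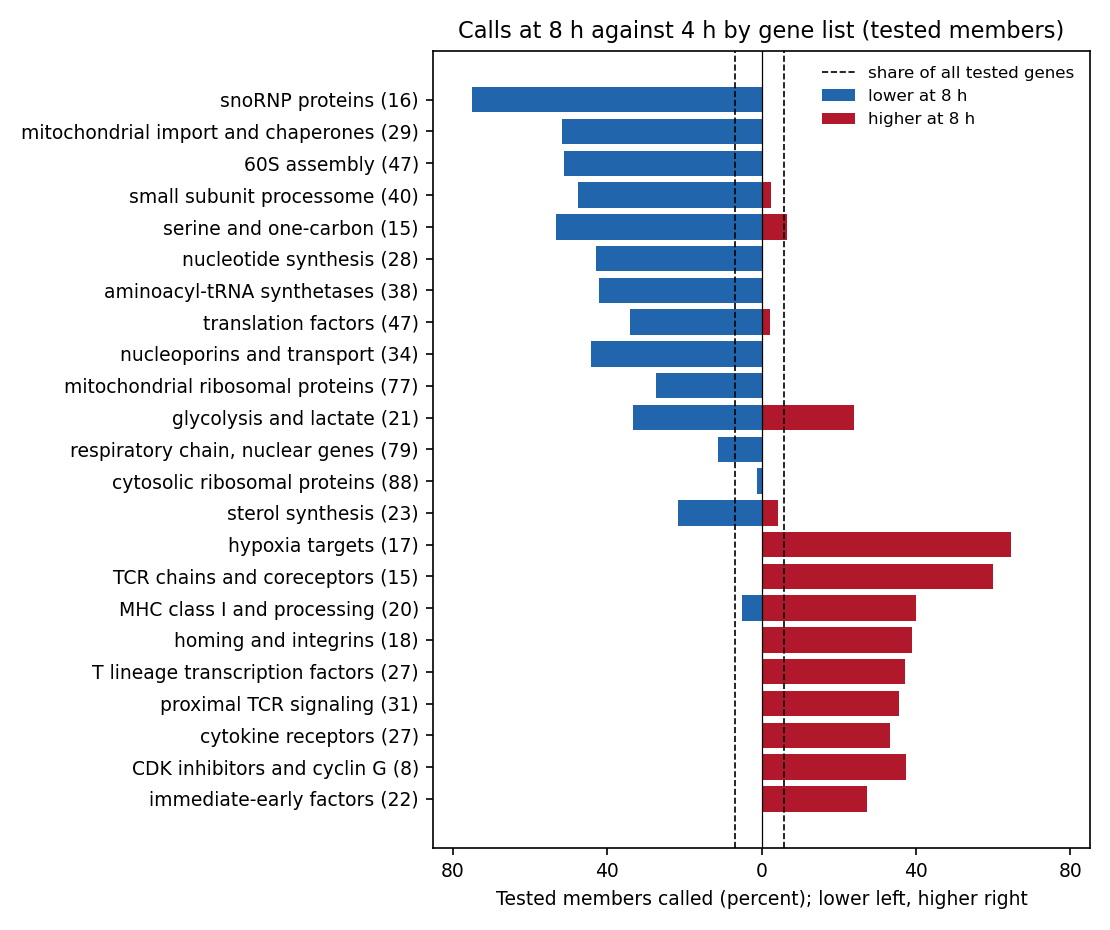
Share of tested members called lower (blue bars, left) and higher (red bars, right) at 8 h against 4 h, in percent, for 23 gene lists with the number tested in brackets. Dashed lines mark the shares of all tested genes, 6.97% lower and 5.73% higher. snoRNP proteins have the largest lower share, with 12 of 16 lower, hypoxia targets reach 64.7% higher, and cytosolic ribosomal proteins stand at 1.14% lower.

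Nuclear genes for mitochondrial proteins fell in several lists. Import components and chaperones fell in 15 of 29 genes and rose in 0, with Hspd1 (248, 207 and 214 CPM at 8 h, 884, 734 and 699 CPM at 4 h, -1.79 ± 0.09, edgeR adjusted p = 4.06e-09) and Phb (-1.22), a prohibitin of the inner membrane. Proteins of the mitochondrial ribosome fell in 21 of 77 and rose in 0. Respiratory chain genes fell in 9 of 79, a share of 11.4% beside 6.97% of all tested genes, with Atp5g1, a subunit of the ATP synthase ring, at 75.2, 69.6 and 71.4 CPM at 8 h and 163, 149.6 and 157 CPM at 4 h (-1.12 ± 0.074). Of the 12 transcripts of the mitochondrial genome tested, 0 passed in either direction with edgeR or with DESeq2, and 2 were higher and 0 lower at an unadjusted p under 0.05. Median levels of the respiratory chain list against 0 h were -0.03, 0.27, 0.10 and -0.45 log2 units at 2, 4, 8 and 24 h. In the fit without the third library of 24 h the falls at 8 h were 32 of 79 respiratory chain genes and 47 of 77 mitochondrial ribosome genes. That fit called 2128 genes lower in all, against 1010 in the main fit.

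The E-box CACGTG, the sequence that MYC and MAX bind, was searched on both strands in RefSeq promoters (250 bases before to 50 after the annotated start, GRCm38.p6), which matched 9558 of the tested genes. It was present in 15.8% of promoters of genes lower at 8 h (123 of 777), in 7.37% of those higher at 8 h (44 of 597) and in 10.2% of all (978 of 9558). Among lower genes it was in 17.8% of those also called in an earlier comparison (100 of 562) and in 10.7% of those not called in one (23 of 215), a status that depends on the threshold. Stretches around the motif are printed for 3 falling genes that hold it, Hspd1, the lactate dehydrogenase Ldha and the argininosuccinate synthase Ass1, with the motif in capitals. A match of letters describes the sequence and does not locate MYC.
Hspd1 (chr1:55088293-55088348, minus strand, motif at position -80 from the start): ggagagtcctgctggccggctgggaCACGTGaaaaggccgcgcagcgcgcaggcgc
Ldha (chr7:46845634-46845786, plus strand, motifs at -145 and -48): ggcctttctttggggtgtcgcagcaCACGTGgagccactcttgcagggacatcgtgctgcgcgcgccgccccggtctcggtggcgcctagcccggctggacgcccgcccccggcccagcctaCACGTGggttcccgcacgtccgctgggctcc
Ass1 (chr2:31470209-31470264, plus strand, motif at -36): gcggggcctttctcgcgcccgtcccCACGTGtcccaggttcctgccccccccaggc
In this interval Ass1 fell to 6.97, 5.51 and 6.17 CPM at 8 h, against 12.1, 12.3 and 13.5 CPM at 4 h (-1.02 ± 0.14).

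Hypoxia targets rose in this interval while glycolysis genes moved both ways. Hypoxia-inducible factors raise glucose uptake, glycolytic enzymes, collagen hydroxylases and mitophagy factors when oxygen or its sensing falls, and MYC raises several of the same glycolytic genes. Among 17 hypoxia targets 11 were higher and 0 lower at 8 h (64.7%, beside 5.73% of all tested genes), with a median log2 fold change of 0.57. This list holds no glycolytic enzyme, and Ldha, Eno1 and Tpi1, which the same factors are known to raise, stand in the glycolysis list and fell, so that its count of 0 lower rests on how the lists were drawn. Among 21 genes of glycolysis and lactate handling, 5 rose and 7 fell. Most of the enzymes that passed fell. Ldha had 1074, 1085 and 1273 CPM at 8 h and 2521, 2343 and 2501 CPM at 4 h (-1.10 ± 0.13, edgeR adjusted p = 1.91e-05), Pkm, the pyruvate kinase, 1036, 978 and 1014 CPM at 8 h and 1898, 1796 and 1783 CPM at 4 h (-0.85 ± 0.069), and Tpi1, the triose isomerase, 284, 297 and 336 CPM at 8 h and 576, 523 and 519 CPM at 4 h (-0.82 ± 0.1). The glucose transporter Slc2a1 rose to 28.5, 29.3 and 32.1 CPM at 8 h, against 17.2, 17.3 and 21.5 CPM at 4 h (0.68 ± 0.088, edgeR adjusted p = 5.01e-05). Slc16a3, which exports lactate and stands in the transporter list, rose to 54.4, 55.2 and 62.5 CPM at 8 h, against 19.1, 17.97 and 32.6 CPM at 4 h (1.30 ± 0.17). Besides Slc2a1 the glycolysis genes that rose were Pdk1, Bnip3, Eno2 and Pfkp, and Pdk1, Bnip3 and Slc2a1 stand in both lists. Eno2 averaged only 0.552 CPM at 8 h and 0.103 CPM at 4 h, the latter below the level of 3 counts. Its call was lost in 2 of 23 alternatives.

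Other hypoxia targets rose as well. Ankrd37, an ankyrin repeat protein known as a target of the factor in human cells, had 9.83, 9.98 and 15 CPM at 8 h and 3.30, 3.76 and 6.29 CPM at 4 h (1.38 ± 0.25, edgeR adjusted p = 0.00106). P4ha2, a collagen prolyl hydroxylase, had 1.98, 1.95 and 2.19 CPM at 8 h and 0.423, 0.813 and 1.07 CPM at 4 h (1.41 ± 0.27), and Kdm3a, a histone demethylase, had 264, 276 and 290.3 CPM at 8 h and 191, 208 and 218 CPM at 4 h (0.43 ± 0.064). In Ankrd37, Slc16a3 and Slc2a1 the third library was the highest of both its 8 h and its 4 h group, and the groups still did not overlap. Bnip3 (51.9, 67.5 and 83.7 CPM at 8 h, 31.3, 30.9 and 44.1 CPM at 4 h, 0.93 ± 0.21), a mitophagy receptor, showed the same order and missed the threshold in 4 of the 24 alternatives, each without 1 library of 4 h or 8 h. The transcript of the factor itself, Hif1a, averaged 85.6 CPM at 8 h and 82.3 CPM at 4 h and did not pass. At 2 h against 0 h 6 of the 17 targets had been higher and 2 lower (6.60% and 8.59% of all tested genes), and at 4 h against 2 h 0 had been higher and 8 lower (7.72% and 13.0%). Median levels of the list against 0 h were 0.19, -0.23, 0.34 and 0.56 log2 units at 2, 4, 8 and 24 h, a dip at 4 h and a rise past the 0 h level by 8 h. The glycolysis list had medians of 0.25, -0.23, -0.60 and -0.38, and the median change of its members at 8 h against 4 h was -0.05, near that of all tested genes. With the third library of 24 h left out, 13 of the 17 hypoxia targets rose and 0 fell. That fit called 1696 genes higher in all, against 830 in the main fit.

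The core of the hypoxia response element, ACGTG, outside an E-box was present in 57.1% of the promoters of the hypoxia list (8 of 14) and in 17.8% of all (1700 of 9558). The list holds known targets of the factors, so this share describes the list and not the step. Among all genes higher at 8 h the motif was in 18.3% of promoters (109 of 597), and among those lower in 20.3% (158 of 777). This motif was added after the list had been seen to move. It is shown, in capitals, for Slc2a1 and for Egln3, an oxygen-sensing prolyl hydroxylase, which was chosen after its values had been seen.
Slc2a1 (chr4:119108684-119108738, plus strand, motif at -36): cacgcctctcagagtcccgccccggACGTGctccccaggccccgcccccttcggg
Egln3 (chr12:54204074-54204124, minus strand, motif at -229): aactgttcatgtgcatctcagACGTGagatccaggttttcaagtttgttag
Egln3 had 35.6, 35.5 and 36.1 CPM at 8 h and 20.3, 22.6 and 21.4 CPM at 4 h (0.73 ± 0.074, edgeR adjusted p = 4.66e-06), with no overlap.

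**Figure D3:**
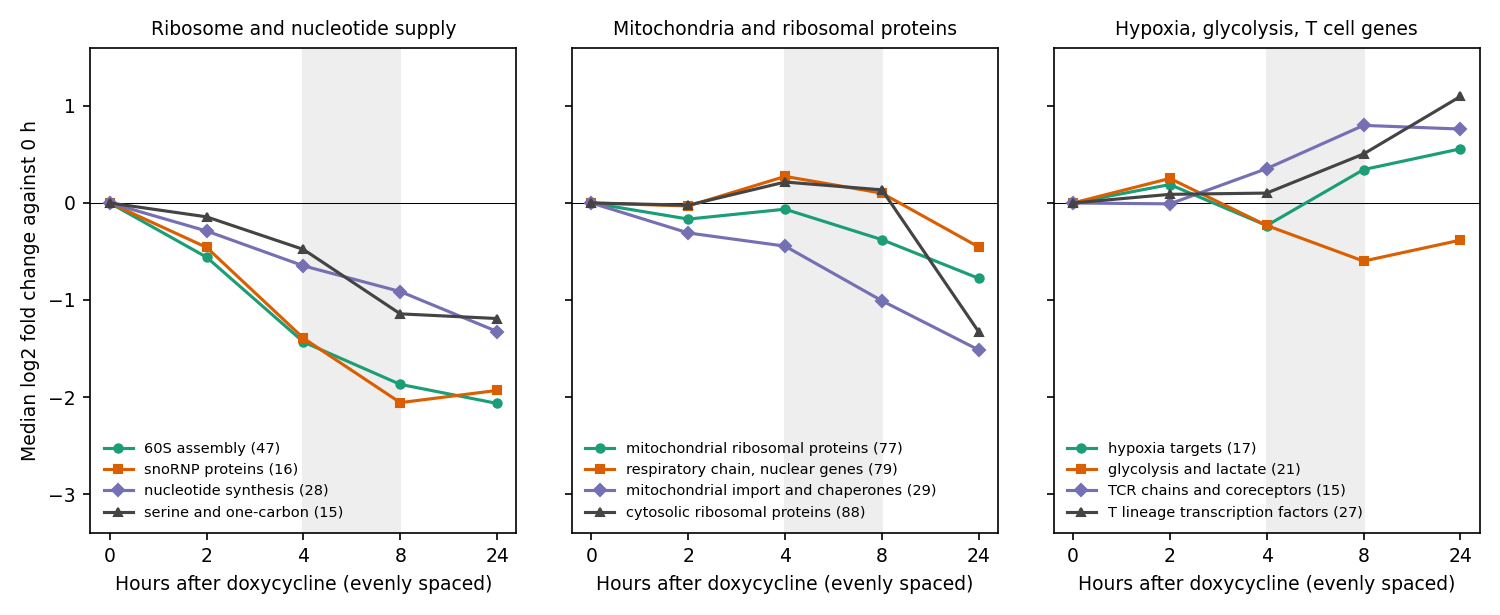
Median log2 fold change against 0 h of 12 gene lists at 0, 2, 4, 8 and 24 h after doxycycline (times evenly spaced on the x axis, tested genes in brackets), with the interval from 4 h to 8 h shaded. The 60S assembly list is at -1.87 at 8 h and -2.07 at 24 h, cytosolic ribosomal proteins at 0.14 at 8 h and -1.33 at 24 h, and the hypoxia list is lowest at 4 h.

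Part of the T cell lineage genes rose. Of 15 T cell receptor chains and coreceptors 9 rose and 0 fell, of 31 proximal signaling genes 11 rose and 0 fell, and of 27 lineage transcription factors 10 rose and 0 fell. Of all tested genes 5.73% rose and 6.97% fell. The medians of the 3 lists were 0.41, 0.27 and 0.41 on the log2 scale. Cd2, an adhesion receptor, had 9.42, 11.1 and 9.36 CPM at 8 h and 4.11, 3.14 and 4.27 CPM at 4 h (1.37 ± 0.16, edgeR adjusted p = 1.67e-05). Cd6, a receptor that tunes T cell activation, had 11.8, 13.6 and 13.3 CPM at 8 h and 5.84, 6.82 and 6.81 CPM at 4 h (0.99 ± 0.11). Its neighbor in function, Cd5, had 13.4, 14.8 and 13.4 CPM at 8 h and 7.95, 6.39 and 7.16 CPM at 4 h (0.95 ± 0.11). Both were far higher later, with means at 24 h of 142 CPM for Cd6 and 83.2 CPM for Cd5. Cd8a, the coreceptor chain for class I molecules, had 1110.0, 1077 and 1086 CPM at 8 h and 602, 606 and 627 CPM at 4 h (0.83 ± 0.054, edgeR adjusted p = 7.02e-08). Rises without the third library of 24 h numbered 12 of 15, 17 of 31 and 18 of 27, with 0 falls in each. That fit called 1696 genes higher in all, against 830 in the main fit.

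Among signaling genes, Tespa1, a thymocyte protein needed for receptor signaling, had 11.2, 12.3 and 13.8 CPM at 8 h and 4.34, 4.69 and 4.95 CPM at 4 h (1.42 ± 0.13), and means of 1.87, 2.58, 4.66, 12.4 and 72.3 CPM over 0, 2, 4, 8 and 24 h. Dgka, the diacylglycerol kinase that damps the same pathway, had 116, 117 and 114 CPM at 8 h and 53.4, 62.1 and 54.3 CPM at 4 h (1.03 ± 0.09). Themis (0.76) and Prkcq (0.73), a thymocyte selection factor and a receptor-proximal kinase, rose too. Tox, a transcription factor of the lineage, had 7.88, 6.94 and 7.63 CPM at 8 h and 2.88, 3.83 and 3.33 CPM at 4 h (edgeR adjusted p = 0.000233). Cytokine receptors and their transducers rose in 9 of 27 and fell in 0, led by Il4ra (0.94) and Il17ra (0.53), and rose in 16 without the third library of 24 h. Homing receptors and integrins rose in 7 of 18 and fell in 0, with Itgal, the alpha chain of LFA-1, among those that rose. Without that library 11 rose. Over all tested genes 5.73% rose and 6.97% fell, and 1696 rose without that library, against 830 with it. Notch receptors and targets moved in 0 of 8 with edgeR and with DESeq2, and 1 was higher and 1 lower at an unadjusted p under 0.05.

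Some class I antigen presentation and checkpoint genes rose as well. Of 20 class I genes 8 rose and 1 fell, where 5.73% of all tested genes rose and 6.97% fell. H2-D1 had 186, 194 and 193 CPM at 8 h and 126, 126 and 129 CPM at 4 h (0.59 ± 0.056), H2-K1 26.8, 31.7 and 31.3 CPM at 8 h and 19.2, 16.8 and 21.1 CPM at 4 h (0.65 ± 0.097), and H2-T23, the mouse counterpart of HLA-E, 39.6, 44.9 and 42.7 CPM at 8 h and 22.7, 24.3 and 24.3 CPM at 4 h (0.84 ± 0.076). These genes resemble each other in sequence, and reads may be split among them. The gene that fell was Erap1 (-0.32), the trimming peptidase, which lost its call in 6 of the 24 alternatives. Interferon-stimulated genes rose in 9 of 31 and fell in 1, with Zbp1, a sensor of Z-form nucleic acid, at 27.2, 27.1 and 30.9 CPM at 8 h and 11.6, 14.1 and 15 CPM at 4 h (1.07 ± 0.11), and Ddx58 (0.84), which encodes RIG-I. Of 10 inhibitory receptors and ligands 4 rose and 0 fell. Cd47, the signal against phagocytosis, had 68.02, 67.2 and 67.8 CPM at 8 h and 52.6, 53.05 and 53.1 CPM at 4 h (0.35 ± 0.056). Cd274, which encodes PD-L1, had 13.5, 12.8 and 13.5 CPM at 8 h and 7.99, 9.33 and 9.86 CPM at 4 h (0.55 ± 0.1, edgeR adjusted p = 0.00134) and lost its call without the first library of 4 h.

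The sialyltransferase St6galnac4 had 6.23, 6.08 and 5.49 CPM at 8 h and 4.84, 2.79 and 4.08 CPM at 4 h (0.60 ± 0.16, edgeR adjusted p = 0.0125), above the threshold of 0.01, with no overlap between the groups. Its means of 78.2, 35.03, 3.90, 5.93 and 8.25 CPM over 0, 2, 4, 8 and 24 h place nearly all of its fall before 4 h. In 9 of the 24 alternatives the higher level at 8 h passed. St6galnac6 had 8.32, 9.87 and 8.17 CPM at 8 h and 7.30, 6.47 and 7.005 CPM at 4 h (adjusted p = 0.057 by edgeR). Of 10 sialyltransferases 1 passed, St6gal1, which caps N-glycans with sialic acid in the α2,6 linkage, at 28.5, 26.6 and 26.4 CPM at 8 h and 16.98, 19.01 and 17.02 CPM at 4 h (0.62 ± 0.087). O-glycan enzymes and carriers rose in 4 of 17 and fell in 0, beside 5.73% and 6.97% of all tested genes. Among the 4 was C1galt1 (282, 290.5 and 289 CPM at 8 h, 227, 236 and 229 CPM at 4 h, 0.31 ± 0.056), which makes the core 1 structure that sialyltransferases extend. Without the third library of 24 h rises numbered 7 here and 3 among the sialyltransferases. In that fit 1696 genes rose in all, against 830 in the main fit. Spn, the carrier CD43, had 210.5, 205 and 205 CPM at 8 h and 175, 181 and 176 CPM at 4 h (0.22 ± 0.057, edgeR adjusted p = 0.0107) and passed in 8 of the 24 alternatives only.

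Cell cycle inhibitors rose in part. Of 8 CDK inhibitor and cyclin G genes 3 rose and 0 fell, with Cdkn1a (p21) at 48.1, 43.4 and 44.5 CPM at 8 h and 24.3, 26.6 and 24.9 CPM at 4 h (0.84 ± 0.082). The D cyclins moved in opposite directions. Ccnd3 had 1007, 905 and 849 CPM at 8 h and 578, 494 and 499 CPM at 4 h (0.81 ± 0.096), and Ccnd2 had 2.42, 1.95 and 2.26 CPM at 8 h and 4.50, 5.03 and 5.18 CPM at 4 h (-1.15 ± 0.18). Of 22 p53 targets, a list that also holds Trp53 itself, 7 rose and 2 fell. Fas, a death receptor, rose by 0.72, while Trp53 had 101, 91.95 and 92.8 CPM at 8 h and 167, 158 and 135 CPM at 4 h (-0.69 ± 0.11) and Bax, a pore-forming death effector, had 21.97, 19.7 and 20.8 CPM at 8 h and 37.2, 31.3 and 33.6 CPM at 4 h (-0.71 ± 0.093). The p53 list had 8 rises and 4 falls without the third library of 24 h, and the inhibitor list 4 and 1. Mitosis genes rose in 1 (1.92%) and fell in 4 (7.69%) of 52 at this step (5 and 13 without that library). Of all tested genes 5.73% rose and 6.97% fell. At 2 h against 0 h 28 mitosis genes had risen and 0 fallen, beside 6.60% and 8.59% of all tested genes. Replication genes rose in 2 and fell in 8 of 51 (4 and 20 without that library, 4 and 5 with library totals), with Pold2 (-0.77), a subunit of polymerase delta, in front. With library totals in place of TMM, mitosis genes rose in 3 and fell in 0, so that the direction of that list depended on the scaling. Unfolded protein response genes rose in 4 of 22 and fell in 0 (10 and 2 without that library, 7 and 0 with library totals), with Edem1, which directs misfolded glycoproteins to degradation, at 748, 706 and 690.4 CPM at 8 h and 455, 419 and 429 CPM at 4 h (0.72 ± 0.067).

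The 10 largest rises among well-expressed protein-coding genes crossed these groups. They were Vwa1 (1.54), a matrix protein, Wdr78 (1.42), a dynein component, Tespa1, Epha2 (1.41), an ephrin receptor, Ankrd37, Ly6c1 (1.33), a surface protein of activated T and myeloid cells, Itgam (1.33), the alpha chain of Mac-1, Slc16a3, Gzma (1.28), a granzyme, and Stc2 (1.24), a secreted glycoprotein of the stress response. Wdr78 had 29.3, 30.2 and 30.8 CPM at 8 h and 11.5, 10.4 and 11.8 CPM at 4 h (edgeR adjusted p = 1.82e-08) and overlaps Mier1 on the opposite strand. Gzma had 22.6, 28.02 and 32.2 CPM at 8 h and 9.22, 11.5 and 13.3 CPM at 4 h, and Itgam had 10.3, 10.6 and 11.9 CPM at 8 h and 4.19, 4.96 and 3.88 CPM at 4 h. Itgam is also a myeloid marker, and the summed level of the 10 myeloid markers was higher at 8 h, as given above. Of the others tested, Csf1r averaged 4.53 CPM at 8 h and 4.73 CPM at 4 h and Cd68 1.26 CPM at 8 h and 0.753 CPM at 4 h, neither past the threshold, and 4 of the 10 held no count in these 6 libraries. The part of myeloid cells in the rise of Itgam was not tested.

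Genes that first moved in this interval were defined as those called at 8 h against 4 h and not called at 2 h against 0 h, 4 h against 2 h or 4 h against 0 h. There were 278 higher (1.92%) and 292 lower (2.02%). A miss of the threshold does not show that a gene was still before 4 h, so earlier levels are given for the main examples. Requiring an unadjusted p above 0.05 in all 3 earlier comparisons left 126 higher and 150 lower. Without the third library of 24 h the counts were 442 higher and 518 lower, and 358 of the 570 genes remained, since smaller earlier changes then passed in the others. Of the first movers 63 rose and 29 fell by at least 2-fold. The first movers that fell had a median level of 61.1 CPM over the 8 h and 4 h libraries, and those that rose 14.8 CPM, against 18.8 CPM for all tested genes. Protein-coding genes made up 87.3% of the fallers, 76.6% of the risers and 76.6% of all tested genes. Median log2 levels against 0 h of the risers were 0.01, 0.10, 0.71 and 0.85 at 2, 4, 8 and 24 h, and those of the fallers -0.02, -0.07, -0.51 and -0.72. The near-zero values at 2 h and 4 h follow from the definition.

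**Figure D4:**
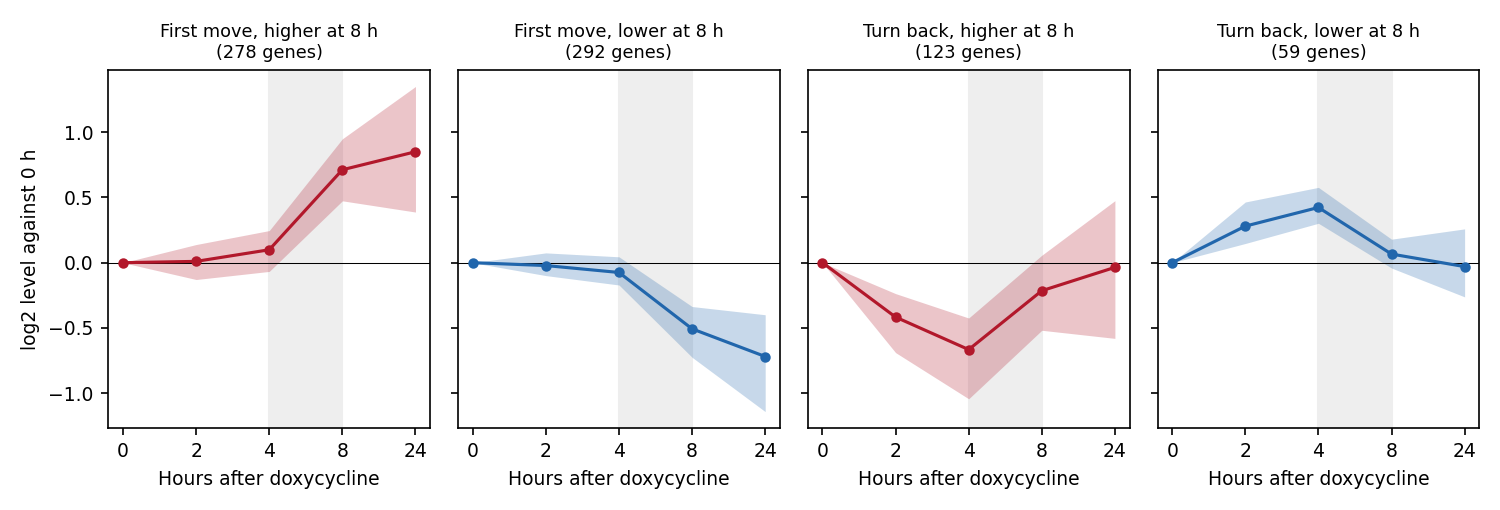
Median log2 level against 0 h (line) with the interquartile range (band) at 0, 2, 4, 8 and 24 h after doxycycline (evenly spaced) of the 278 and 292 genes that first moved between 4 h and 8 h and of the 123 and 59 that turned back. Flat starts and reversals follow from the definitions, and the levels at 24 h do not.

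First movers that rose and kept this status in all 24 alternatives included Acap1, Chrna9, Cdc25b, Itgal, Kdm5b, Parp3, Slc9a9, Dusp5 and Isg20. Acap1 (chr11:69881567-69895539), a regulator of ARF6 and integrin recycling, had 135, 130.3 and 123 CPM at 8 h and 60.4, 66.5 and 64.1 CPM at 4 h (1.02 ± 0.11, edgeR adjusted p = 1.29e-05), and means of 55.8, 54.8, 63.7, 129 and 190.5 CPM over 0, 2, 4, 8 and 24 h. Chrna9 (chr5:65934921-65977326), a nicotinic acetylcholine receptor subunit, had 20.4, 23.8 and 21.4 CPM at 8 h and 8.99, 9.06 and 11.9 CPM at 4 h (1.13 ± 0.1), and means of 9.47, 9.14, 9.99, 21.9 and 37.3 CPM over the 5 times. Both were flat until 4 h and about 2-fold higher 4 h later. Itgal rose to 46.2, 41.8 and 39.7 CPM at 8 h, against 27.3, 26.8 and 25.7 CPM at 4 h (0.68 ± 0.12), and stood at 142 CPM on average at 24 h. Cdc25b, a phosphatase that activates CDKs, had 322, 303 and 278 CPM at 8 h and 215, 209 and 204 CPM at 4 h (0.52 ± 0.074), with 252 CPM on average at 24 h, below its 8 h level. Slc9a9, an endosomal proton exchanger, had 10.6, 10.7 and 9.24 CPM at 8 h and 5.46, 5.23 and 4.83 CPM at 4 h (0.98 ± 0.1). Kdm5b (1.25), a histone H3K4 demethylase, Dusp5 (0.70), a phosphatase of ERK, Isg20 (0.97), an interferon-induced nuclease, and Parp3 (0.98), a repair enzyme that overlaps Rrp9 on the opposite strand, moved the same way. Ankrd37 and Slc2a1 of the hypoxia list were first movers as well, with mean CPM at 0, 2 and 4 h of 4.42, 2.54 and 4.45 for Ankrd37 and 21.9, 18.2 and 18.7 for Slc2a1. Slc2a1 lost the status in 4 alternatives, and Dgka and Cd5, first movers by the rule, lost it without the third library of 24 h.

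First movers that fell and kept the status in all 24 alternatives were Cmss1, Gmds, Mrpl42, Ndufs7 and Rpl22l1 among the named genes. Cmss1 (chr16:57302000-57606864), a protein of the small ribosomal subunit processome in yeast, had 14.8, 15.6 and 19.2 CPM at 8 h and 35.5, 39.5 and 40.4 CPM at 4 h (-1.22 ± 0.11, edgeR adjusted p = 1.91e-06), and means of 42.3, 44.2, 38.5, 16.6 and 13.1 CPM over 0, 2, 4, 8 and 24 h. Filip1l, which overlaps it on the opposite strand, had log2 fold changes of 2.17 at 4 h against 0 h and 0.20 at 8 h against 4 h. Gmds (chr13:31819579-32338740), which starts GDP-fucose synthesis, had 8.58, 8.07 and 9.51 CPM at 8 h and 16.8, 15.4 and 18.6 CPM at 4 h (-0.96 ± 0.11), and means of 15.4, 16.6, 16.9, 8.72 and 8.47 CPM. Rpl22l1 had 16.6, 19.02 and 20.1 CPM at 8 h and 32.4, 29.2 and 34.6 CPM at 4 h (-0.79 ± 0.13). Larger falls among the first movers were those of Dtd1 (-1.47), a D-tyrosyl-tRNA deacylase, Chchd10 (-1.27), a mitochondrial cristae protein, Qdpr (-1.25), which recycles tetrahydrobiopterin, Fabp5 (-1.25), a fatty acid carrier, and Suclg2 (-1.23), a subunit of succinyl-CoA synthetase. These 5 genes had log2 fold changes of -0.23, -0.20, -0.37, -0.29 and -0.26 at 4 h against 0 h, and all lost the status without the third library of 24 h, where an earlier change passed.

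Mitochondrial energy genes were among the first movers that fell, and so were 2 of 11 CCT and prefoldin genes and 2 of 18 heat shock genes. As given above, these first movers had a higher median level than all tested genes. The respiratory chain list held 8 (10.1% of 79 tested, beside 2.02% of all tested genes) and the mitochondrial ribosome list 8 of 77. The 8 respiratory genes changed by -0.28 to 0.05 log2 units at 4 h against 0 h, by -0.66 to -0.32 at 8 h against 4 h, and stood at -1.158 to -0.729 at 24 h against 0 h. Ndufs7, a complex I subunit, had 51.1, 52.04 and 50.4 CPM at 8 h and 74.6, 74.9 and 77.1 CPM at 4 h (-0.56 ± 0.085, edgeR adjusted p = 0.000225), with means of 80.8, 74.5, 75.5, 51.2 and 44.1 CPM. Mrpl42, a mitochondrial ribosome protein, had 96.9, 98.5 and 107 CPM at 8 h and 164, 182 and 174 CPM at 4 h (-0.78 ± 0.1). Ndufs7 and Mrpl42 kept the status in all 24 alternatives, while the respiratory gene Sdhd kept it in 7 and the mitochondrial ribosome gene Mrps28 in 11. Cytochrome c, Cycs, had 62.8, 67.5 and 71.6 CPM at 8 h and 98.6, 109 and 111 CPM at 4 h (-0.66 ± 0.12), after means of 129 CPM at 0 h and 105 CPM at 2 h, and lost the first-mover status without the third library of 24 h. In that setting 15 respiratory genes were first movers that fell and 10 others had been higher at 4 h than at 0 h before they fell. Falling first movers then numbered 518 in all, against 292 in the main fit.

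**Figure D5:**
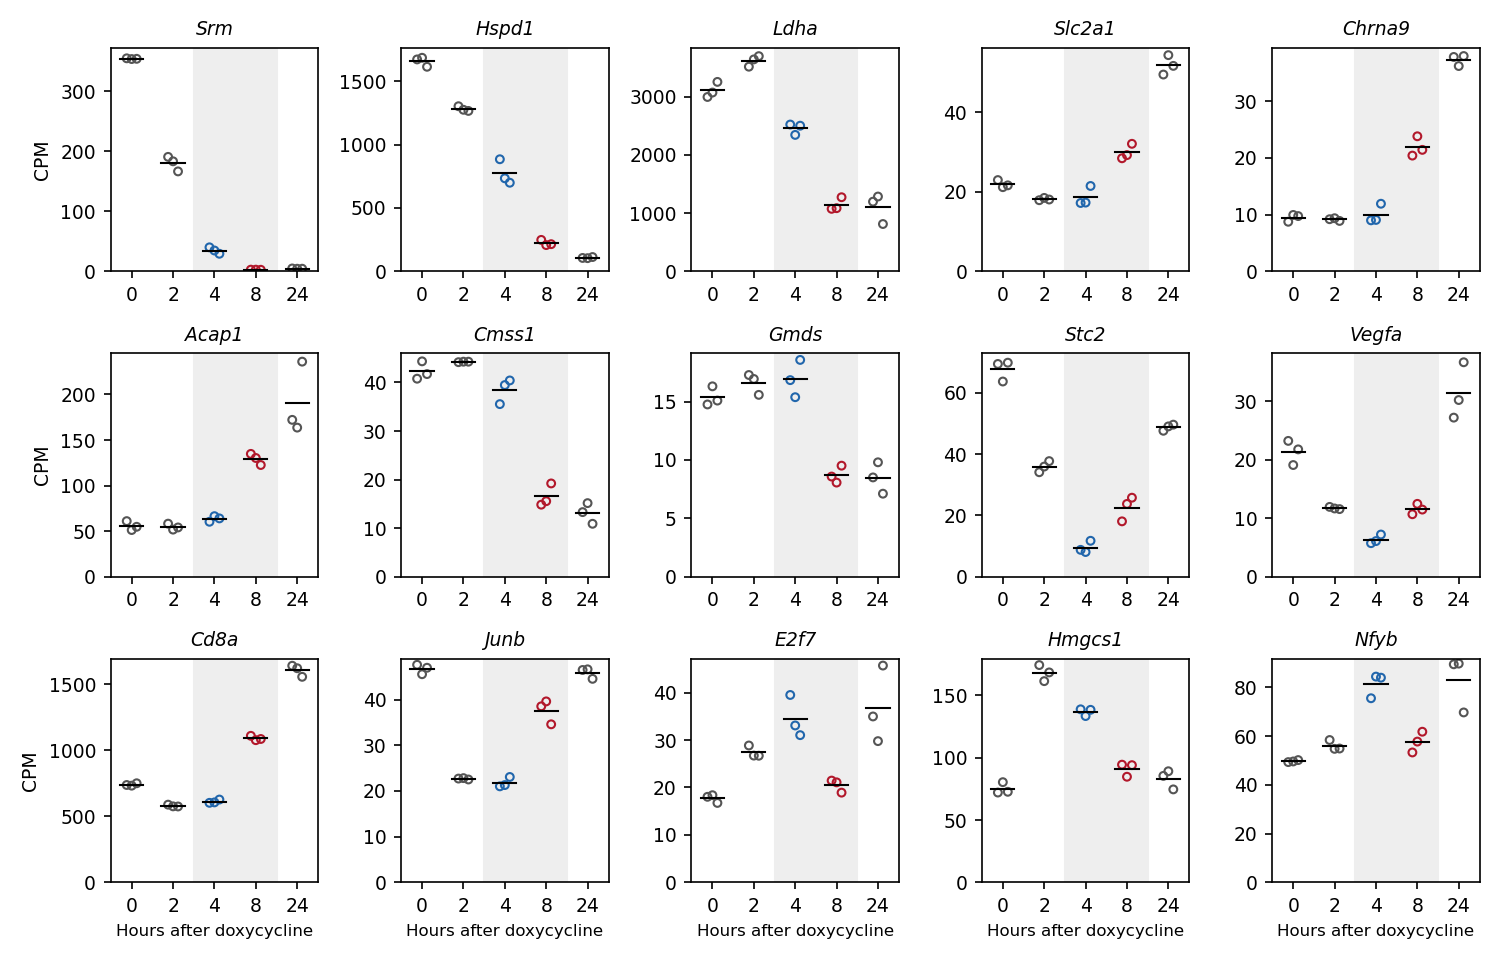
CPM in each library (circles, 3 per time, replicates 1 to 3 from left to right) with the mean (bar) at 0, 2, 4, 8 and 24 h after doxycycline (evenly spaced) for 15 genes, with 8 h in red, 4 h in blue and both shaded. The groups of 8 h and 4 h do not overlap in any of the 15, which holds for all 1840 called genes. Srm, Hspd1 and Ldha fall, Slc2a1, Chrna9 and Acap1 first rise here, Cmss1 and Gmds first fall here, and the other 7 turn back.

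Genes that turned back were called at 4 h against 0 h and called the other way at 8 h against 4 h. Of all tested genes, 18.1% were higher and 19.9% lower at 4 h than at 0 h. There were 123 that rose at 8 h after a fall (0.849% of tested genes) and 59 that fell at 8 h after a rise (0.407%). Both comparisons use the 4 h libraries, so that an error there enters both with opposite sign, and a count from comparisons with no library in common is given beside it. Of 1244 genes lower at 2 h than at 0 h, 103 (8.28%) rose and 288 (23.2%) fell at 8 h against 4 h. Of 956 genes higher at 2 h than at 0 h, 129 (13.5%) rose and 53 (5.54%) fell. Of the 12285 not called at 2 h, 4.87% rose and 5.45% fell. Continuing in the same direction was thus more frequent than turning back in both groups, in counts. By both definitions 73 genes rose again and 28 fell again. Reversals were small, and 29 risers and 5 fallers had changes of at least 1.5-fold in both steps. Against 0 h 25.3% of all tested genes were higher at 8 h and 25.1% lower. Of the 123 risers, 55 had returned to a level not called different from 0 h, 54 were still below it and 14 had passed it. Of the 59 fallers, 51 were not called different from 0 h, 8 were still above it and 0 below it. Without the third library of 24 h there were 291 risers and 281 fallers, and all 182 genes remained.

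The risers that turned back included stress, hypoxia and death genes. Stc2 (chr11:31357307-31370074), a glycoprotein induced by hypoxia and by ATF4, had 18.1, 23.8 and 25.8 CPM at 8 h and 8.80, 8.09 and 11.8 CPM at 4 h (1.24 ± 0.13, edgeR adjusted p = 9.44e-06), with means of 67.6, 35.9, 9.55, 22.5 and 48.7 CPM over 0, 2, 4, 8 and 24 h. Vegfa (chr17:46016993-46032369), the endothelial growth factor, had 10.7, 12.5 and 11.5 CPM at 8 h and 5.76, 6.12 and 7.24 CPM at 4 h (0.86 ± 0.13, edgeR adjusted p = 0.000171), with means of 21.4, 11.8, 6.38, 11.6 and 31.4 CPM. Pfkfb3, which makes the activator of phosphofructokinase, had 9.50, 9.64 and 9.55 CPM at 8 h and 3.88, 2.94 and 5.22 CPM at 4 h (1.25 ± 0.18), with means of 29.9, 10.2, 4.02, 9.56 and 36.6 CPM. Pdk1, which holds pyruvate back from mitochondria, had 128, 135 and 151 CPM at 8 h and 89.5, 94.1 and 104 CPM at 4 h (0.53 ± 0.096), and its 0 h and 2 h means were 158 and 242 CPM. At 8 h Stc2, Vegfa and Pfkfb3 were still well below their 0 h levels. Bbc3, which encodes the death activator PUMA, had 6.82, 8.07 and 6.41 CPM at 8 h and 3.65, 3.60 and 3.52 CPM at 4 h (0.98 ± 0.13), with means of 12.2, 7.94, 3.59, 7.10 and 10.4 CPM. Junb, an AP-1 subunit that overlaps Prdx2, had 38.5, 39.6 and 34.6 CPM at 8 h and 21.02, 21.3 and 23.1 CPM at 4 h (0.79 ± 0.068), and its mean of 22.7 CPM at 2 h was already near that at 4 h.

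T cell surface genes were also among the risers that turned back. Cd8a had means of 740.2, 579.6, 612, 1091 and 1607 CPM over 0, 2, 4, 8 and 24 h, so that it was below its 0 h level at 2 h and 4 h and above it at 8 h. Cd27, a costimulatory receptor of the TNF receptor family, had 74.1, 83.7 and 74.95 CPM at 8 h and 41.6, 43.9 and 42.2 CPM at 4 h (0.87 ± 0.066), with means of 52.7, 38.04, 42.6, 77.6 and 189 CPM. With upper-quartile factors Cd8a and Cd27 no longer turned back, as the fall before 4 h did not pass, while both still rose at 8 h. Cd44, the hyaluronan receptor, had 88.3, 84.3 and 89.99 CPM at 8 h and 68.04, 66.1 and 63.6 CPM at 4 h (0.41 ± 0.063), and Il4ra had 6.60, 8.07 and 7.75 CPM at 8 h and 4.07, 3.56 and 4.08 CPM at 4 h (0.94 ± 0.11) with means of 6.49, 5.23, 3.90, 7.47 and 27.7 CPM. Epha2 had 24.5, 23.4 and 19.7 CPM at 8 h and 8.76, 8.02 and 8.71 CPM at 4 h (1.41 ± 0.13, edgeR adjusted p = 1.71e-06), with means of 13.9, 8.44, 8.49, 22.5 and 45.4 CPM, and Vwa1 had 11.2, 9.53 and 11.9 CPM at 8 h and 3.996, 2.63 and 4.59 CPM at 4 h (1.54 ± 0.18). Zfp36l2 (0.71), an RNA-binding factor of quiescence, Neu1 (0.51), the lysosomal sialidase, Ung (0.51), the uracil glycosylase, Snai3 (0.84) and Gramd4 (0.94) also turned up again. Bysl, the ribosome factor that rose against its list, belonged to them, with means of 128, 94.5, 85.01, 129 and 198 CPM.

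Named fallers that turned back had several roles. E2f7, a repressor of the E2F family, had 21.4, 21.1 and 18.9 CPM at 8 h and 39.5, 33.1 and 31.03 CPM at 4 h (-0.75 ± 0.13, edgeR adjusted p = 0.000667), with means of 17.7, 27.4, 34.5, 20.5 and 36.8 CPM over 0, 2, 4, 8 and 24 h. Cdc45, a part of the replicative helicase, had 154, 152 and 153 CPM at 8 h and 195, 198 and 202 CPM at 4 h (-0.38 ± 0.067), with means of 106, 154, 199, 153 and 161 CPM. Hells, a chromatin remodeler, had 301, 296 and 300.1 CPM at 8 h and 372, 394 and 366 CPM at 4 h (-0.34 ± 0.053). Nfyb, a subunit of the CCAAT-binding factor, had 53.3, 57.8 and 61.8 CPM at 8 h and 75.6, 84.5 and 84.02 CPM at 4 h (-0.50 ± 0.09), and its mean at 24 h, 83.0 CPM, was again near the 4 h level. Arrdc3, an arrestin-like protein, had 10.5, 13.2 and 13.5 CPM at 8 h and 17.3, 20.1 and 22.1 CPM at 4 h (-0.67 ± 0.12). Without the third library of 24 h, 13 replication and 12 mitosis genes turned back downward, against 3 and 1 with it.

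Sterol synthesis genes had risen at 2 h in 13 of 23 with 0 lower, beside 6.60% higher and 8.59% lower of all tested genes. They had fallen at 4 h against 2 h in 12 with 0 higher, beside 13.0% lower and 7.72% higher. At 8 h against 4 h 5 fell and 1 rose (8 and 3 without the third library of 24 h), and with library totals or upper-quartile factors 2 fell and 2 rose, so that the direction of the list at this step depended on the scaling. Hmgcs1, the enzyme that opens the mevalonate pathway, had 94.4, 84.7 and 94.01 CPM at 8 h and 139, 133 and 138 CPM at 4 h (-0.59 ± 0.074, edgeR adjusted p = 4.17e-05), with means of 75.01, 168, 137, 91.04 and 83.03 CPM, a peak at 2 h. It kept its call in all 24 alternatives. Nsdhl, of the later steps, had 58.7, 55.8 and 58.4 CPM at 8 h and 79.3, 76.2 and 70.8 CPM at 4 h (-0.39 ± 0.092). NF-Y boxes (CCAAT) were found in 15 of 16 promoters of this list, against 39.3% of all. A match to the sterol element TCACNCCAC was found in only 1 of the 16, that of Hmgcs1, and in 1.12% of all promoters. This motif was added after the data had been seen. The Hmgcs1 stretch is printed with the match in capitals.
Hmgcs1 (chr13:119690189-119690247, plus strand, motif at -137): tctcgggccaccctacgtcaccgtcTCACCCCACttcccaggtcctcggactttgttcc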

How the data were processed

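PolyA RNA of 15 libraries was sequenced, 3 at each of 0, 2, 4, 8 and 24 h. The authors trimmed reads with cutadapt 1.16, aligned them to mm10 with STAR 2.5.4b and counted them per gene with featureCounts, per the submitters' processing notes, and they deposited raw counts with TPM. The annotation release, strand setting and multimapping rule of the counting were not stated there or in the methods read. Groups came from the sample labels.

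The deposited counts were tested with edgeR 4.0.16 (quasi-likelihood F test, TMM scaling, filterByExpr on the 5 groups, R 4.3.3) in a single fit of all 15 libraries, which share the estimate of spread, with no block. p-values were Benjamini-Hochberg adjusted over 14485 genes at a threshold of 0.01. The standard error was the absolute log2 fold change over the root of F. Profiles against 0 h of first movers and of genes that turned back used log2 of mean CPM plus 0.5. List medians against 0 h used the fitted log2 fold changes. The deposited TPM served to check directions, and 250 of 250 named called genes went the same way. TPM and counts come from the same libraries, so this does not test the results independently. Gene positions came from GENCODE M21 (GRCm38), which matched 53274 of 53380 features, and promoters from RefSeq GRCm38.p6. No 2 libraries agreed within counting error, and 3 counts set the floor, which covers counting error only.

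Named genes were the transgene, St6galnac4, St6galnac6, Spn, and the 10 largest rises and falls among called protein-coding genes with at least 10 CPM and no overlap, over all genes, first movers and genes that turned back, and up to 4 genes per direction of each list. The members, the 62 gene lists and the tests were chosen with earlier results of these data known. Alternatives were DESeq2 1.42.0, other scalings, filters, thresholds and libraries, the replicate number as a block, and each library left out. The motifs for the hypoxia and sterol elements and the list counts without the third library of 24 h were added after seeing the data. The scripts were tested on simulated data.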

Additional observations from a re-analysis of the deposited data

How the results depend on the processing

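None of the 255 genes that the selection rule covers reversed direction in 6116 combinations with the 24 alternatives. Some genes given above, such as Egln3 and Nsdhl, were not among the 255. The side of the threshold was the same in 5637, the call was lost in 460 and gained in 19, and 74 genes had any such change. The counts depended more on the setting. The genes higher at 8 h than at 4 h numbered 830, the genes lower at 8 h than at 4 h 1010. Leaving out 1 library gave 482 to 1696 higher and 609 to 2128 lower genes, 181 to 442 and 130 to 518 first movers, and 81 to 291 and 17 to 281 that turned back. The highest values were those without 24 h replicate 3 in all 6 counts. The cause was not tested. Without 4 h replicate 1 the counts were 482 and 669, 183 and 163, and 81 and 22. Without 8 h replicate 2 they were 502 and 609, 181 and 130, and 17 lower genes turned back. Without 4 h replicate 2, 534 were higher and 20 turned back downward. Without 8 h replicate 3, 549 were higher, 157 first fell and 21 turned back downward. Fewer libraries also leave fewer degrees of freedom. Without any 1 of the 0, 2, 4 or 8 h libraries, downward reversals numbered 17 to 39.

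Without the 24 h libraries the genes higher at 8 h than at 4 h numbered 1784 and the genes lower at 8 h than at 4 h 1786, with 493 rising first movers, and 338 and 164 that turned back. At an adjusted p under 0.05 there were 1522 and 1735, 440 and 461, and 245 and 180. At least a 2-fold change left 111 and 138, the strict rule for first movers 126 and 150, and at least 1.5-fold in both steps 29 and 5 that turned back. Library totals gave 178 falling first movers and 29 downward reversals, DESeq2 gave 105 downward reversals, and a fit of the compared times alone gave 188 upward ones. DESeq2 called 1105 higher and 1366 lower genes.

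With the replicate number as a block the genes higher at 8 h than at 4 h numbered 702 and the genes lower at 8 h than at 4 h 870, with 264 and 256 first movers, and 98 and 40 that turned back. The numbers share a label only: deviations of same-numbered 8 h and 4 h libraries correlated at 0.082 to 0.211, below 0.1 in at least 1 pair, although all 6 libraries correlated best with their own number, a hint from the data and not the design. Of the 1840 called genes 1553 remained.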

Other observations

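Calls at 8 h against 4 h were also counted by transcript class, with no test between classes. Of 482 lincRNAs tested, 42 (8.71%) were higher and 13 (2.70%) lower, and of 885 antisense transcripts 39 (4.41%) were higher and 22 (2.49%) lower. Of 11100 protein-coding genes 691 (6.23%) were higher and 922 (8.31%) lower. Processed pseudogenes, whose reads can come from the parent gene, had 5 higher and 27 lower of 920. Variable segments of the T cell receptor genes rose in 9 of 44 (20.5%) and fell in 0. Scaling by totals moved the split of calls over all genes, as given above, and these groups were not run in that setting.

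The genes nearest the threshold inside it were Gm48321 (1.22, edgeR adjusted p = 0.00995), Clk4, a kinase of splicing factors (0.37, edgeR adjusted p = 0.00996), and E230034D01Rik (0.85, edgeR adjusted p = 0.00998), all log2 fold changes at 8 h against 4 h. Those nearest outside it were Polr2l, a subunit shared by the RNA polymerases (-0.53, edgeR adjusted p = 0.01), Gm26787 (-0.36) and Gm44986 (-0.45).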
